A study of Caenorhabditis elegans with 6 samples.

Results

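The genes described here are 10 parts of the protein folding machinery of the endoplasmic reticulum (ER) in the worm Caenorhabditis elegans, and the sensors that watch over it. They were chosen by name (hsp-3, hsp-4, crt-1, pdi-1, pdi-2, pdi-3, pdi-6, ire-1, xbp-1 and pek-1). Of the 10, 8 had a row of their own with the same name and position in all 7 deposited tables, which list 15796 loci. The remaining 2, pdi-1 and xbp-1, lay inside loci that carry the name of a neighbouring gene, and they are treated separately at the end. RNA was sequenced from whole adult worms of the wild-type Bristol N2 strain kept at 20 °C, in 6 libraries. The control group of 3 libraries was fed bacteria making double-stranded RNA against tag-208, a gene listed here under its newer name sorb-1. The other group of 3 libraries came from worms fed RNA against prx-5, which encodes the receptor that carries most enzymes into the peroxisome. Feeding began with L4 larvae on plates with 6 mM IPTG, and the adults of the following generation were harvested. Both groups therefore had a targeted gene, and no untreated worms were analysed here. The labels number the libraries without saying whether they came from separate cultures, so the p-values measure the spread between these libraries, which may be technical.

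Newly made secreted and membrane proteins fold in the ER with the help of chaperones and of enzymes that form disulfide bonds. When unfolded proteins build up there, the ER unfolded protein response is switched on. In C. elegans the kinase and nuclease IRE-1 then cuts the xbp-1 mRNA, the ligase RTCB-1 joins the pieces, and the resulting transcription factor raises chaperone genes such as hsp-4. The kinase PEK-1 slows translation by phosphorylating the initiation factor eIF2α, and ATF-6 forms a further branch. RNA of hsp-4 is the usual readout of the response in worms, while its paralog hsp-3 is expressed more constantly.

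The comparison asked which of these transcripts differed between the groups. No member passed the test, 0 of 8 at an adjusted p under 0.05 (limma with Benjamini-Hochberg adjustment over all loci). Of all 13347 loci tested, 8.69% passed. At an unadjusted p under 0.05, 1 member (pek-1) passed, against 21.9% of all loci. The authors' deposited table called 1 of the 8, hsp-4, against 14.4% of the same loci (9.52% higher and 4.85% lower). The log2 fold changes of the members, prx-5-labelled minus control on log2 of FPKM + 1, ran from -0.53 for hsp-4 to 0.50 for pek-1. FPKM counts fragments per transcript length and per library size, so levels can be compared between genes. The median log2 fold change of the 8 members was -0.08, against 0.04 for all loci tested, and 5 of the 8 were below 0, or 7 of 8 with median-ratio scaling or the authors' library constants. With quantile normalization 4 of 8 were below 0, and the members' median (-0.0069) lay above that of all loci (-0.099). The groups did not overlap for 2 of the 8 members, both higher in the prx-5-labelled group and 0 lower, where 21.2% of all loci had groups that did not overlap with the prx-5-labelled group higher and 5.80% with it lower.

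Some facts of the libraries bear on every value below. RNA of prx-5 itself had 4.48, 4.73 and 3.50 FPKM in the control and 14.9, 21.3 and 23.5 FPKM in the libraries labelled prx-5 RNAi (log2 fold change 1.98 ± 0.22, SE; limma adjusted p = 0.00866). The rise is opposite to a knockdown of the RNA, so directions follow the labels alone. RNA of sorb-1 had 11.5, 12.9 and 6.96 FPKM in the control and 13.6, 14.8 and 25.6 FPKM in the prx-5-labelled libraries (log2 fold change 0.72 ± 0.31, SE; limma adjusted p = 0.232). On the first principal component (52.1% of the variance), control replicate 2 (-15.4) and prx-5 replicate 1 (7.39) lay between the other control libraries (-51.3 and -54.8) and the other prx-5-labelled libraries (54.2 and 59.9). Depth relative to control replicate 1, read from the steps between low FPKM values, ran from 0.767 to 1.26. In RNA of whole worms, fewer cells of a type and less RNA per cell cannot be told apart.

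**Figure D1:**
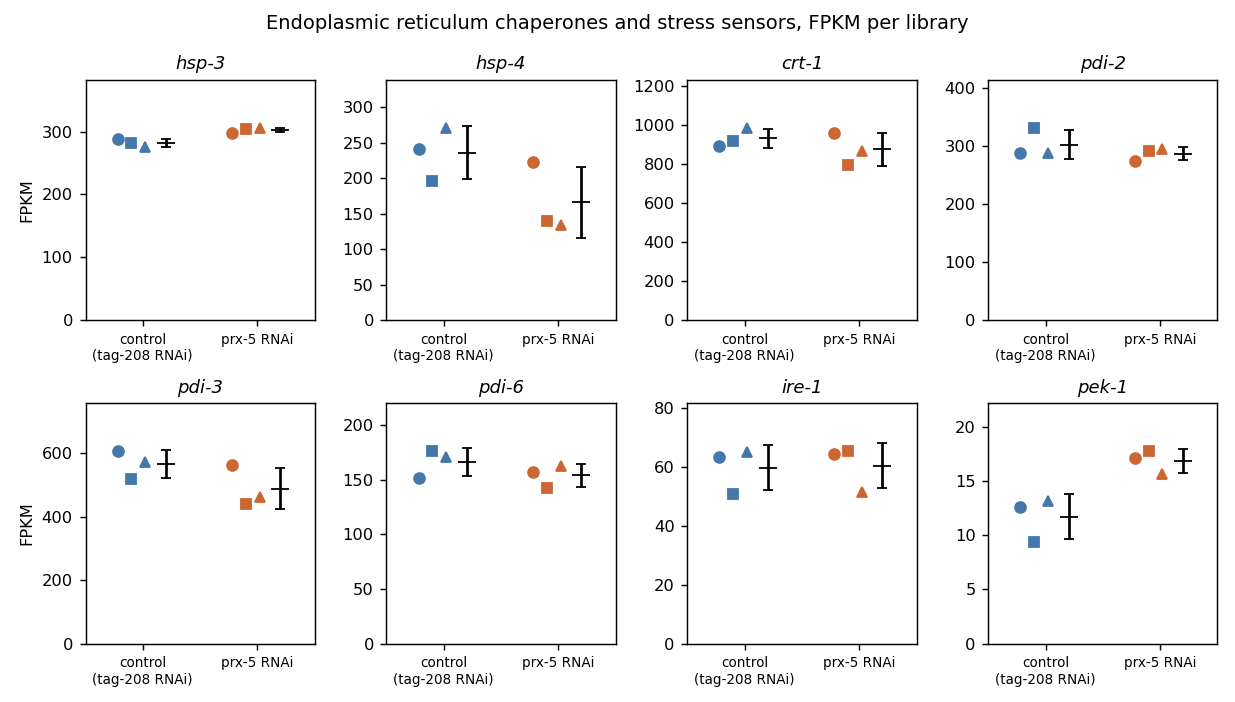
FPKM of the 8 measured genes in each library (vertical axes from 0). Circles, squares and triangles are replicates 1, 2 and 3 of each group, and black marks show the mean ± SD of 3 libraries. The prx-5-labelled libraries lay above all control libraries for hsp-3 and pek-1, and the groups overlapped for the other 6 genes.

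Among the ER chaperones, the most abundant RNA was that of crt-1, which encodes calreticulin, a calcium-binding chaperone for glycoproteins. Its level was 891, 916 and 984 FPKM in control replicates 1, 2 and 3, and 959, 794 and 868 FPKM in prx-5 replicates 1, 2 and 3. The highest and the lowest values of the prx-5-labelled group bracketed 2 of the control values, and the groups overlapped. For crt-1 the log2 fold change was -0.09 ± 0.18 (SE, limma adjusted p = 0.785), with a 95% interval from -0.51 to 0.32. The locus of crt-1 runs over its neighbour smut-1 on the opposite strand, with which the annotated gene shares 92 bases. Whether the libraries kept strand is not given in the sources used here, so fragments from those bases cannot be assigned to either gene.

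The BiP genes hsp-3 and hsp-4 encode the Hsp70 chaperones of the ER. RNA of hsp-3 had 288, 282 and 275 FPKM in control replicates 1, 2 and 3, and 299, 304 and 306 FPKM in prx-5 replicates 1, 2 and 3. It was the steadiest of the members, with a coefficient of variation of 2.29% in the control and 1.28% in the prx-5-labelled group. All 3 prx-5-labelled values lay above all 3 control values, by a ratio of the means of 1.07. The fitted log2 fold change of hsp-3 was 0.10 ± 0.14 (SE, limma adjusted p = 0.698, 95% interval -0.22 to 0.43). Its sign turned to -0.01 with median-ratio scaling and -0.03 with the authors' library constants.

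RNA of hsp-4 had 242, 196 and 271 FPKM in control replicates 1, 2 and 3, and 223, 140 and 134 FPKM in prx-5 replicates 1, 2 and 3. Replicates 2 and 3 of the prx-5-labelled group lay below every control library, while replicate 1 lay inside the control range. The means were 236 ± 37.98 and 166 ± 49.6 FPKM (SD, n = 3). The difference of -0.53 ± 0.24 (SE) on the log2 scale missed the threshold (limma adjusted p = 0.255), and its 95% interval ran from -1.10 to 0.03. The lower end of that interval corresponds to a level 2.15-fold lower, and the upper end allows no more than a 1.02-fold higher level. In the authors' deposited table, hsp-4 was called lower, with a log2 fold change of -0.65 and a q of 0.00334, as were 4.85% of the loci tested here. Without prx-5 replicate 1 the limma fit called hsp-4 lower (-0.77, adjusted p = 0.03997), in a fit that called 13.8% of all loci. Over all alternatives its adjusted p ranged from 0.00614 to 0.608, and the value stayed below 0 in all 17.

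A ratio of the BiP genes within a library is free of library scaling. The FPKM of hsp-4 divided by that of hsp-3 was 0.838, 0.694 and 0.984 in control replicates 1, 2 and 3, and 0.747, 0.461 and 0.439 in prx-5 replicates 1, 2 and 3. In every library hsp-4 was the lower of the pair, and it was near equality in control replicate 3. Of the FPKM of both genes together, hsp-4 held 45.4 ± 4.31% in the control group and 34.9 ± 6.79% in the other group (SD, n = 3). The mean log2 ratio differed by -0.64, with an exact two-sided permutation p of 0.2, where 3 libraries against 3 cannot go below 0.1. Since the paralogs are similar in sequence, fragments that fit both could have been split between them by the authors' counting, and the ratio is uncertain to that extent.

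**Figure D2:**
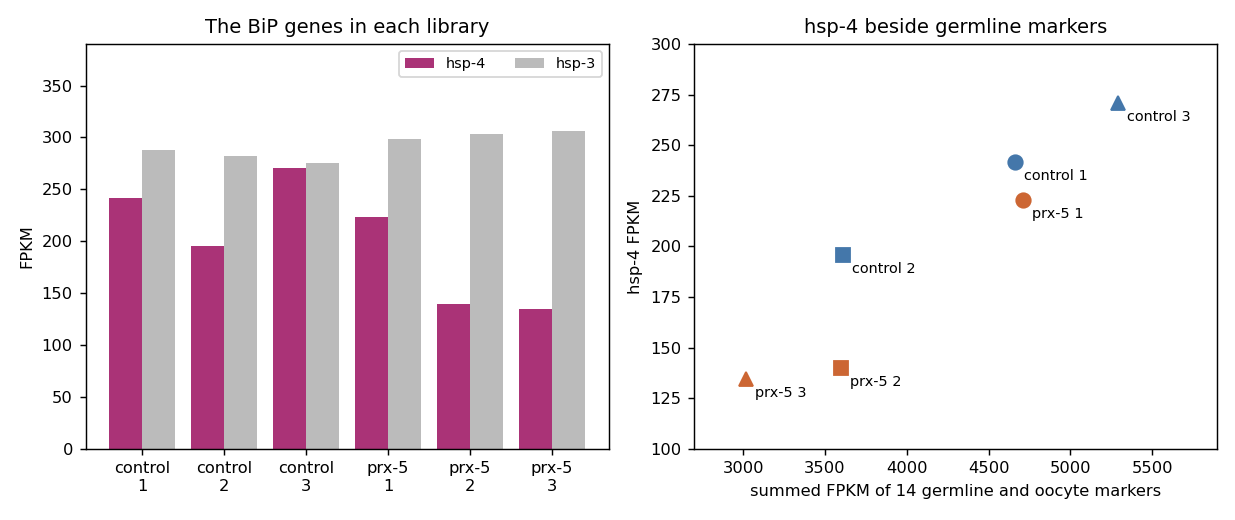
Left, FPKM of hsp-4 and hsp-3 in each library (bars from 0). Right, FPKM of hsp-4 against the summed FPKM of 14 germline and oocyte markers, 1 point per library, with axes that do not start at 0. The hsp-3 bars stay between 275 and 306 FPKM, and prx-5 replicates 2 and 3 are low in hsp-4 while prx-5 replicate 1 lies beside control replicate 1.

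Germline genes are set beside hsp-4 because the same libraries were high and low in both. The summed FPKM of 14 germline and oocyte markers was 4661, 3608 and 5293 in control replicates 1, 2 and 3, and 4712, 3600 and 3017 in prx-5 replicates 1, 2 and 3. Control replicate 3 was highest and prx-5 replicates 2 and 3 were lowest in both measures, and control replicate 2 was the lowest control in both. The measures also differed. Control replicate 2 and prx-5 replicate 2 had nearly the same germline sum, with 196 and 140 FPKM of hsp-4. Prx-5 replicate 1 lay above control replicate 1 in the germline sum and below it in hsp-4 (223 and 242 FPKM). None of the 14 markers passed the test (limma, with 0 of 14 also at an unadjusted p under 0.05). The authors' deposited table called 2 of them lower, where it called 4.85% of all loci lower. All 14 had log2 fold changes below 0, with a median of -0.28, and all 14 stayed below 0 with the 3 other scalings. Without control replicate 1, control replicate 3 or prx-5 replicate 3, 11 of the 14 were below 0, and without 1 library the median ran from -0.45 (without prx-5 replicate 1) to -0.13 (without prx-5 replicate 3). The part of the germline in the hsp-4 values was not tested.

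The genes whose profile over the 6 libraries was most like that of hsp-4, by Pearson correlation of log2(FPKM + 1) among named genes outside the members, were prmt-5 (r = 0.999), mrps-9 (0.998), mrpl-2 (0.998), unc-38 (0.997) and lpd-9 (0.997). The arginine methyltransferase gene prmt-5 had 297, 265 and 318 FPKM in the control libraries and 281, 214 and 207.6 FPKM in the prx-5-labelled libraries, at a locus that also spans atp-2, prx-10 and mrps-26 and of which prmt-5 fills 33.1%. Such likeness was common, since 10.9% of 13336 loci had an r above 0.9 with hsp-4. The points of each correlation are the same 6 libraries of 2 groups, so both genes of a pair share the depth of each library. Among the members, pdi-3 was nearest to hsp-4 (r = 0.949, rank 718 of 13336), followed by crt-1 (0.818). The profile of hsp-3 ran the other way (r = -0.801).

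The protein disulfide isomerase genes encode enzymes that make and rearrange disulfide bonds. RNA of pdi-3, of the ERp57 type, had 606, 520 and 573 FPKM in control replicates 1, 2 and 3, and 562, 442 and 464 FPKM in prx-5 replicates 1, 2 and 3. As for hsp-4, prx-5 replicates 2 and 3 lay below every control library and replicate 1 lay among them. For pdi-3 the log2 fold change was -0.22 ± 0.18 (SE, limma adjusted p = 0.523, 95% interval -0.63 to 0.20). It passed with sample weights alone (-0.38, adjusted p = 0.0327), in a fit that called 39.1% of all loci. Over all alternatives the adjusted p of pdi-3 ran from 0.0327 to 0.839.

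PDI-2 also serves as the subunit of the collagen prolyl 4-hydroxylase that pairs with DPY-18 and PHY-2 in making cuticle collagen. RNA of pdi-2 had 288, 332 and 288 FPKM in control replicates 1, 2 and 3, and 275, 291 and 295 FPKM in prx-5 replicates 1, 2 and 3. Control replicate 2 was the highest library and the groups overlapped (log2 fold change -0.07 ± 0.15, SE; limma adjusted p = 0.797; 95% interval -0.42 to 0.27). RNA of pdi-6 had 151, 176 and 171 FPKM in the control and 157, 142 and 163 FPKM in the prx-5-labelled libraries. Its groups overlapped as well (log2 fold change -0.11 ± 0.14, SE; limma adjusted p = 0.703; 95% interval -0.45 to 0.23). For pdi-2 a level more than 1.34-fold lower, and for pdi-6 one more than 1.36-fold lower, lay outside the interval.

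Among the 8 members, the sensors ire-1 and pek-1 had lower levels than the chaperones and isomerases. RNA of ire-1 had 63.1, 50.8 and 65.0 FPKM in control replicates 1, 2 and 3, and 64.3, 65.1 and 51.4 FPKM in prx-5 replicates 1, 2 and 3. One library of each group lay near 51 FPKM and the other 4 between 63.1 and 65.1, so the groups covered almost the same range. For ire-1 the log2 fold change was 0.02 ± 0.17 (SE, limma adjusted p = 0.969, 95% interval -0.38 to 0.41), and its sign turned under 5 alternatives. The gene unc-105 lies on the opposite strand within the span of ire-1, shares 6456 bases with it and had no row of its own. Fragments from unc-105 cannot be told apart from those of ire-1 here.

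RNA of pek-1 had 12.6, 9.34 and 13.2 FPKM in control replicates 1, 2 and 3, and 17.1, 17.7 and 15.6 FPKM in prx-5 replicates 1, 2 and 3. All 3 prx-5-labelled libraries lay above all 3 control libraries, with means of 16.8 ± 1.07 and 11.7 ± 2.06 FPKM (SD, n = 3) and a ratio of the means of 1.44. Its log2 fold change of 0.50 ± 0.18 (SE) had the smallest p of the members (unadjusted p = 0.0269) and did not pass the adjustment over all loci (limma adjusted p = 0.159). Its 95% interval ran from 0.08 to 0.92. In the authors' deposited table the log2 fold change of pek-1 was 0.39, with a q of 0.245. The call was made with sample weights alone (0.46, adjusted p = 0.0236), in a fit that called 39.1% of all loci. Over all alternatives the adjusted p ran from 0.0236 to 0.529 and the log2 fold change from 0.22 to 0.59.

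Markers of other tissues are set beside pek-1 because the intestine sums, like pek-1, were higher in every prx-5-labelled library than in any control library. Of all loci, 21.2% had that order of the groups. Within the control the order was reversed. Control replicate 2 had the highest sum (1394) and the lowest pek-1 (9.34 FPKM), and control replicate 3 the lowest sum (951) and the highest pek-1 (13.2 FPKM). In the prx-5-labelled group replicate 2 was highest in both, while replicate 1 had the lowest sum and replicate 3 the lowest pek-1. The summed FPKM of 11 intestine markers ranged from 951 to 1394 in the control and from 3114 to 5988 in the prx-5-labelled libraries. The largest part was asp-1, with 478 to 778 FPKM in the control and 1921 to 4377 FPKM in the prx-5-labelled libraries. Of the 11 markers, 9 rose (limma adjusted p under 0.05, where 7.49% of all loci rose). The authors' deposited table called 10 of the 11 higher, against 9.52% of all loci. The limma count was 4 with median-ratio scaling or the authors' constants and 5 with quantile normalization. Leaving out prx-5 replicate 2, prx-5 replicate 3 or control replicate 3 gave 0 calls, and leaving out control replicate 1 gave 1, while all 11 stayed above 0 in each of these fits. The sum of 10 neuron markers ranged from 339 to 423 in the control and from 407 to 568 in the prx-5-labelled libraries, and 0 of the 10 passed the test (1 at an unadjusted p under 0.05, and 1 called higher in the authors' deposited table). Of 9 muscle markers 2 fell, mup-2 (at a locus it shares with glt-4) and dim-1, named after their values were seen, where 1.20% of all loci fell. All 9 had log2 fold changes below 0, and 6 had an unadjusted p under 0.05, against 21.9% of all loci. For 6 the groups did not overlap, with the prx-5-labelled group lower, against 5.80% of all loci. The authors' deposited table called 6 lower, against 4.85% of all loci. The locus counted for unc-89 among the 9 covered 0% of the annotated gene. The count of muscle markers that fell in the limma fit was 0 when prx-5 replicate 2, prx-5 replicate 3 or control replicate 3 was left out. That number was 5 without prx-5 replicate 1, 1 without control replicate 1 and 3 without control replicate 2. With median-ratio scaling or the authors' constants it was 4, and with quantile normalization 3. The muscle sum ranged from 3335 to 4137 in the control and from 1943 to 2518 in the prx-5-labelled libraries. Its largest part was lev-11, with 1638 to 2210 FPKM in the control and 1086 to 1268 FPKM in the prx-5-labelled libraries. Of 8 sperm markers 0 passed (4 at an unadjusted p under 0.05, and 4 called lower by the authors' deposited table), with sums from 82.2 to 322 in the control and from 45.1 to 91.9 in the prx-5-labelled libraries. The locus of spe-9 among them covered 10.1% of the annotated gene. The largest part of the sperm sums was the locus counted for msp-31, of which 3.57% is that gene. It had 30.8 to 150 FPKM in the control and 21.3 to 47.0 FPKM in the prx-5-labelled libraries. Of 8 hypodermis markers, only col-19 passed, as lower, also named after its values were seen (2 at an unadjusted p under 0.05). The authors' deposited table called 4 of the 8 higher and 1 lower, where it called 9.52% of all loci higher and 4.85% lower. The hypodermis sums ranged from 1028 to 1558 in the control and from 575 to 978 in the prx-5-labelled libraries. Of the sums of 1113, 1558 and 1028 in control replicates 1, 2 and 3, col-19 alone held 1035, 964 and 992 FPKM. In prx-5 replicates 1, 2 and 3 it held 354, 278 and 250 of 575, 755 and 978. The median log2 fold change of the hypodermis list, 1.74, had the opposite sign to the change of its sum, with 7 of the 8 genes above 0. It was 0.75 without control replicate 3 and 2.76 without control replicate 2, and 5 of the 8 were above 0 without control replicate 3 or prx-5 replicate 2. No marker was listed at 0 in all 6 libraries. Their part in the values of the ER genes was not tested.

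**Figure D3:**
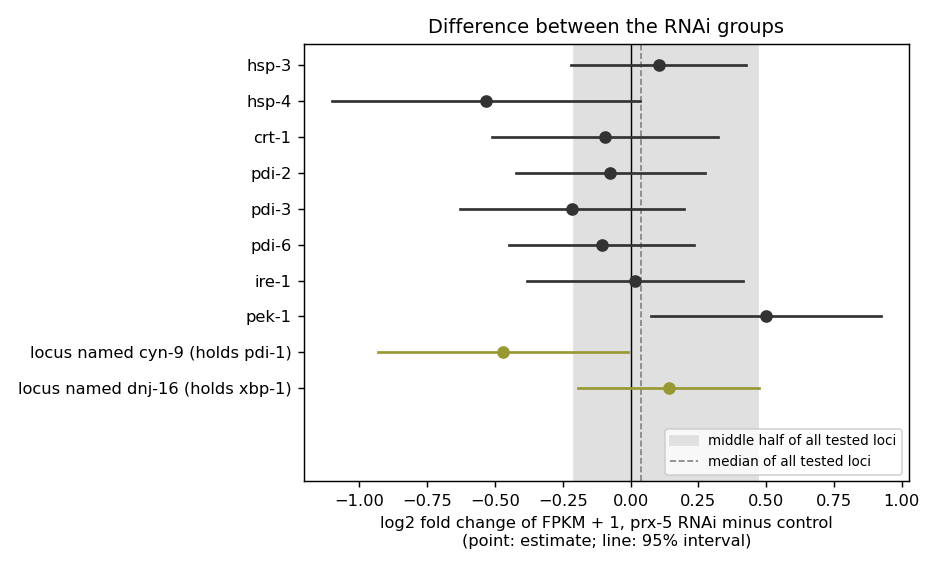
Log2 fold change of FPKM + 1, prx-5-labelled minus control, with its 95% interval, for the 8 measured genes (dark) and for the loci that hold pdi-1 and xbp-1 under another gene's name (olive). The grey band spans the 25th to the 75th percentile of all tested loci. The intervals of hsp-3, crt-1, pdi-2, pdi-3, pdi-6 and ire-1 include 0 and stay within 0.63 of it, that of hsp-4 reaches from -1.10 to 0.03, and that of pek-1 from 0.08 to 0.92.

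By level, the order in the control libraries was crt-1 (930 ± 47.9 FPKM), pdi-3 (566 ± 43.4), pdi-2 (303 ± 25.3), hsp-3 (282 ± 6.45), hsp-4 (236 ± 37.98), pdi-6 (166 ± 13.1), ire-1 (59.6 ± 7.70) and pek-1 (11.7 ± 2.06), each the mean ± SD of 3 libraries. The only neighbours whose control values overlapped were pdi-2 and hsp-3. In the prx-5-labelled libraries hsp-3 (303 ± 3.88) stood above pdi-2 (287 ± 10.9) without overlap, and the values of hsp-4 overlapped those of pdi-6 (154 ± 10.6). The chaperone and isomerase genes lay between the 94.3 and the 99.0 percentile of the levels of all tested loci, ire-1 at the 80.3 and pek-1 at the 53.4 percentile. The summed FPKM of the 8 genes was 2543, 2482 and 2641 in control replicates 1, 2 and 3, and 2556, 2196 and 2297 in prx-5 replicates 1, 2 and 3. Replicate 1 of the prx-5-labelled group was inside the control range, and replicates 2 and 3 were below it. The largest part of that sum is crt-1.

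Other genes of the same pathway were taken from 5 lists with 48 genes, of which 41 had a row and were tested. Among the 41 is the cyn-9 locus, which also holds the member pdi-1 and is described with it below. None passed the test, 0 of 41 (limma), where 8.69% of all loci passed. At an unadjusted p under 0.05, 4 of the 41 passed, against 21.9% of all loci. The authors' deposited table called 1 higher and 3 lower, where it called 9.52% of all loci higher and 4.85% lower. The cyn-9 locus is among the 4 and among the 3. Of the 41, 31 had log2 fold changes below 0 and 10 above, with a median of -0.16 against 0.04 for all loci. Without prx-5 replicate 1, 3 of the 41 were called, C14B9.2 and dnj-20 higher and cyn-9 lower, in a fit that called 13.8% of all loci. Other scalings shifted the values of all loci by a median of -0.11 with median-ratio scaling, -0.13 with the authors' constants and -0.26 with quantile normalization. Quantile normalization did not shift the lists alike, since the median of ER-associated degradation went from -0.20 to -0.16 and that of collagen hydroxylation from -0.26 to -0.46.

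**Figure D4:**
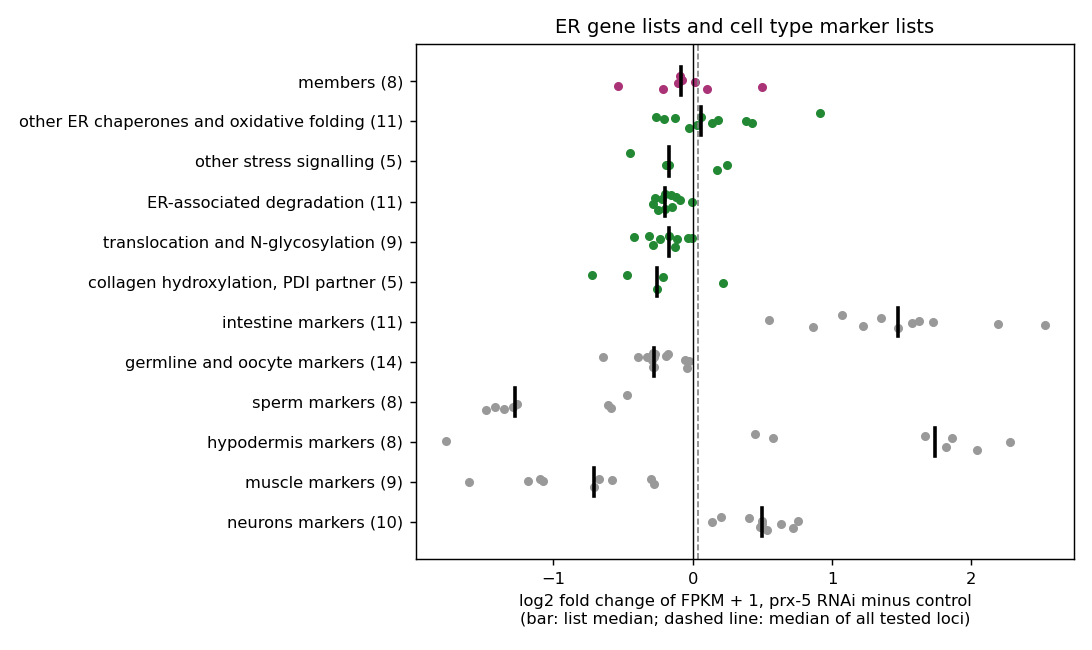
Log2 fold changes, prx-5-labelled minus control, of the 8 members, of 5 lists of other ER genes and of 6 lists of cell type markers, with the number of genes tested in parentheses. Points are genes and bars are list medians. The ER lists have medians from -0.26 to 0.06, while the marker lists have medians from -1.28 to 1.74.

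Among 11 other chaperones and folding enzymes, 7 had log2 fold changes above 0 and 4 below, with a median of 0.06 that turned to -0.06 with median-ratio scaling and -0.08 with the authors' constants, and to -0.04 with sample weights. Leaving out 1 library gave medians from 0.03 (without prx-5 replicate 1) to 0.12 (without control replicate 1). The disulfide isomerase family gene C14B9.2 had 17.3, 23.4 and 19.98 FPKM in the control libraries and 26.7, 37.4 and 58.2 FPKM in the prx-5-labelled libraries. Its groups did not overlap, and the difference of 0.92 ± 0.29 (SE) on the log2 scale missed the threshold (limma adjusted p = 0.104). Without prx-5 replicate 1 it passed (1.18, adjusted p = 0.02796), in a fit that called 13.8% of all loci. The authors' deposited table called C14B9.2 higher, with a log2 fold change of 0.88 and a q of 0.00101. The co-chaperone gene dnj-7, the worm counterpart of P58IPK, had 25.7, 25.9 and 25.3 FPKM in the control and 33.98, 34.03 and 32.97 FPKM in the prx-5-labelled libraries. Its libraries agreed closely within each group and the groups did not overlap, yet the log2 difference of 0.38 ± 0.13 (SE) missed the threshold (limma adjusted p = 0.135).

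In the signalling list, rtcb-1, the ligase that joins the cut xbp-1 mRNA, had 51.9, 39.2 and 54.4 FPKM in the control and 43.2, 32.7 and 29.8 FPKM in the prx-5-labelled libraries. Here too prx-5 replicates 2 and 3 lay below every control library (log2 fold change -0.45 ± 0.20, SE; limma adjusted p = 0.251), and the authors' deposited table called it lower, with a log2 fold change of -0.60 and a q of 0.0349. The third sensor gene, atf-6, had 4.81 to 7.05 FPKM in the control and 6.75 to 7.67 FPKM in the prx-5-labelled libraries, with overlap (log2 fold change 0.24 ± 0.19, SE; limma adjusted p = 0.513), and its sign turned to -0.08 with quantile normalization. The list of 5 had a median log2 fold change of -0.17, which was -0.055 without control replicate 1, -0.058 without prx-5 replicate 3, -0.30 without prx-5 replicate 1 and -0.25 without control replicate 2.

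The lists of protein disposal and import lay just below 0. In ER-associated degradation, which draws misfolded proteins out of the ER for destruction, 11 of 11 tested genes had log2 fold changes below 0, with a median of -0.20. Quantile normalization left 10 of 11 below 0, and leaving out control replicate 3 left 9 of 11 and prx-5 replicate 3 left 10 of 11. The median was -0.33 without prx-5 replicate 1, -0.12 without control replicate 3, -0.13 without prx-5 replicate 2 and -0.085 without prx-5 replicate 3. The derlin gene der-2 (listed as R151.6) had 61.4, 59.845 and 66.1 FPKM in the control and 59.759, 50.7 and 47.4 FPKM in the prx-5-labelled libraries (log2 fold change -0.25 ± 0.15, SE; limma adjusted p = 0.385). Its groups did not overlap, though prx-5 replicate 1 lay only just below control replicate 2. The AAA ATPase gene cdc-48.2 had 207, 165 and 221 FPKM in the control and 211, 155 and 128 FPKM in the prx-5-labelled libraries (log2 fold change -0.28 ± 0.22, SE; limma adjusted p = 0.511), at a locus that also holds ints-11. The summed FPKM of this list was 2062, 1695 and 2121 in control replicates 1, 2 and 3, and 2092, 1617 and 1444 in prx-5 replicates 1, 2 and 3, with the same libraries low as for the germline markers. Whether that has a part in the values was not tested.

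In translocation and N-glycosylation, 9 of 9 tested genes had log2 fold changes below 0, with a median of -0.17, and 7 of 9 with quantile normalization, with sample weights or without prx-5 replicate 1. With quantile normalization the list median was -0.104, close to the -0.099 of all loci tested. Leaving out control replicate 2, control replicate 3 or prx-5 replicate 2 left 8 of 9 below 0. The median was -0.28 without prx-5 replicate 1. The translocon gene sec-61.B (listed as Y38F2AR.9) had 400, 474 and 487 FPKM in the control and 428, 271 and 332 FPKM in the prx-5-labelled libraries (log2 fold change -0.42 ± 0.21, SE; limma adjusted p = 0.304). In the authors' deposited table sec-61.B was called lower, with a log2 fold change of -0.55 and a q of 0.0319. The channel subunit gene sec-61.A (listed as sec-61) had 466, 493 and 563 FPKM in the control and 472, 386 and 394 FPKM in the prx-5-labelled libraries (log2 fold change -0.28 ± 0.17, SE; limma adjusted p = 0.392). In both genes prx-5 replicate 1 lay inside the control range and replicates 2 and 3 lay below it. Of the genes of collagen hydroxylation, the prolyl hydroxylase gene phy-3 had 3.59, 4.07 and 2.09 FPKM in the control and 1.78, 1.49 and 1.29 FPKM in the prx-5-labelled libraries, at a locus that covers 24.4% of the annotated gene. The phy-3 groups did not overlap, and the log2 difference of -0.73 ± 0.26 (SE) missed the threshold (limma adjusted p = 0.157).

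The pdi-1 gene (WBGene00003962) lies at 3699739 to 3701461 on the minus strand of chromosome III in WBcel235, in an operon with the cyclophilin gene cyn-9. All of it falls inside a single deposited locus named cyn-9, from 3697712 to 3701557. That locus had 236, 209 and 241 FPKM in control replicates 1, 2 and 3, and 212, 143 and 147 FPKM in prx-5 replicates 1, 2 and 3. Replicates 2 and 3 of the prx-5-labelled group were again below every control library. For the cyn-9 locus the log2 fold change was -0.47 ± 0.20 (SE, limma adjusted p = 0.217). It was -0.65 without prx-5 replicate 1 (adjusted p = 0.0308), in a fit that called 13.8% of all loci. The authors' deposited table called cyn-9 lower, with a log2 fold change of -0.60 and a q of 0.0112. How much of this value comes from pdi-1 and how much from cyn-9 cannot be told apart.

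The xbp-1 gene (WBGene00006959) lies at 4193809 to 4195358 on the plus strand of chromosome III, wholly inside a locus named dnj-16, from 4191159 to 4195584. That locus had 79.0, 70.4 and 85.2 FPKM in the control and 88.2, 89.5 and 80.7 FPKM in the prx-5-labelled libraries, with overlap. Its log2 fold change was 0.14 ± 0.14 (SE, limma adjusted p = 0.608, 95% interval -0.19 to 0.47). The share of xbp-1 in that value cannot be told apart from that of dnj-16, and an FPKM per locus does not separate the spliced from the unspliced mRNA.

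The positions of the measured genes matched the WBcel235 annotation, and their loci covered between 92.2% and 100% of each gene, with coordinates here counted from 1. The locus of hsp-3 (WBGene00002007) runs from 6088914 to 6091881 on chromosome X, and that of hsp-4 (WBGene00002008) from 7350106 to 7352682 on chromosome II. Those of pdi-2 (WBGene00003963), pdi-6 (WBGene00015168) and pek-1 (WBGene00003970) are on chromosome X, from 4524063 to 4526618, from 7066334 to 7068541 and from 11410113 to 11414863. The ire-1 locus (WBGene00002147) runs from 8112239 to 8124852 on chromosome II, and the pdi-3 locus (WBGene00003964) from 7015903 to 7020797 on chromosome I. The crt-1 locus (WBGene00000802), from 6096090 to 6100549 on chromosome V, is the exception in the other direction, since 34.8% of it is crt-1.

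**Figure D5:**
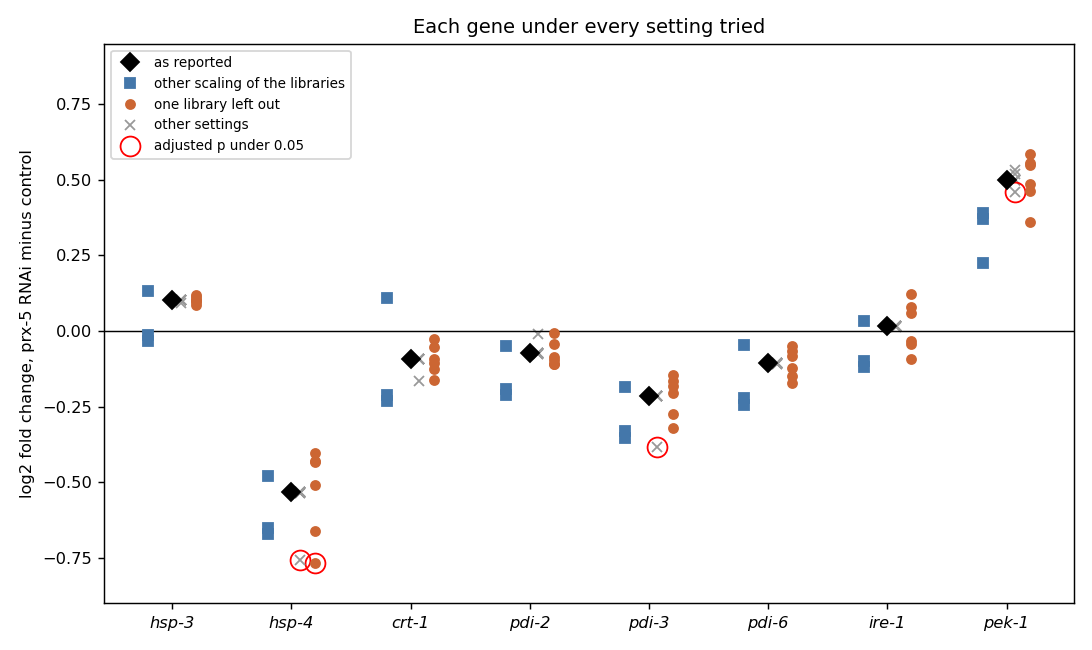
Log2 fold change of each of the 8 measured genes, prx-5-labelled minus control, as reported (diamonds), with other scalings of the libraries (squares), with 1 library left out (circles) and with other settings (crosses). Red rings mark an adjusted p under 0.05. The values of hsp-4 stay between -0.77 and -0.40 and those of pek-1 between 0.22 and 0.59, and the rings fall on hsp-4, pdi-3 and pek-1.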

How the data were processed

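The authors deposited FPKM per locus for each library and each group, per the file headers. Their comparison table also holds a log2 fold change, a test statistic (a score), a p-value and a q-value per locus, all as deposited by the authors. CASAVA, Bowtie, Cufflinks and Cuffdiff are named, without versions, per the submitters' processing notes. Build, annotation and strandedness are not given in the sources used here, and loci were placed against WBcel235.

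Tables were joined by row. Left out were 913 loci whose name or position differed between tables and 97 whose libraries missed the authors' group value by over 2%. Of 14786 loci used, those with a mean of at least 1 FPKM (13347) were compared on log2(FPKM + 1) by limma 3.58.1 in R 4.3.3, with a variance trend, empirical Bayes moderation and Benjamini-Hochberg adjustment over all loci. Calls are adjusted p-values under 0.05. The limma script was tested on simulated data. SE and 95% intervals are those of the moderated fit, with n = 3 per group. The authors' library constants (0.916 to 1.08) were recovered from their group values. Absolute depth is unknown, so no counting intervals are given.

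Members and gene lists were chosen with earlier results of these data known. Named were all members, the targeted genes, of each pathway list every called gene or else the 2 with the smallest p, and the 5 genes most like hsp-4. Same-numbered libraries did not deviate together in all 3 pairs (correlations 0.290, 0.232 and -0.117), so the numbers were not used as a block.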

Additional observations from a re-analysis of the deposited data

How the results depend on the processing

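The median log2 fold change of the 8 members (-0.08) moved to -0.20 with median-ratio scaling, -0.22 with the authors' library constants and -0.0069 with quantile normalization, and without 1 library it ranged from -0.12 to -0.047. The median of all loci tested (0.04) moved to -0.066, -0.084 and -0.099 with those scalings, in the same order. The members' median thus lay above that of all loci with quantile normalization, and below it as reported and with the other scalings. The number of members called (0) became 3 with sample weights (hsp-4, pdi-3 and pek-1), in a fit that called 39.1% of all loci. Without 1 library that number ranged from 0 to 1, with hsp-4 called in the fit without prx-5 replicate 1, which called 13.8% of all loci. The number of pathway genes called (0 of 41) became 15 with sample weights, beside the same 39.1% of all loci. Without 1 library it ranged from 0 to 3, with the 3 in the fit that called 13.8% of all loci. The settings of the pathway genes and of the cyn-9 and dnj-16 loci were added after the data were seen. The number of all loci called (1160) became 694 with median-ratio scaling, 714 with the authors' constants, 770 with quantile normalization and 5217 with sample weights, and without 1 library it ranged from 78 to 1848. The cause of these shifts was not tested. Higher loci made up 86.2% of the calls, 73.5% with median-ratio scaling, 73.1% with the authors' constants, 69.0% with quantile normalization, 61.5% with sample weights and 72.0% with all loci as listed.

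Signs turned for hsp-3 with median-ratio scaling (-0.013) and the authors' constants (-0.034), for crt-1 with quantile normalization (0.11), and for atf-6 with quantile normalization (-0.079). The sign of ire-1 turned with median-ratio scaling (-0.10), the authors' constants (-0.12) and when any of 3 libraries was left out, namely control replicate 2 (-0.094), prx-5 replicate 1 (-0.034) and prx-5 replicate 2 (-0.043), and without 1 library it ranged from -0.094 to 0.12. The log2 ratio of hsp-4 to hsp-3 (-0.64) kept its direction in every alternative run, and without 1 library it ranged from -0.88 to -0.50.

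With the replicate number as a block, 1253 loci and 0 members were called, and the BiP ratio gave -0.64 with an exact sign-flip p of 0.25, the smallest that 3 pairs allow. The members' intervals rest on 3 libraries a group, and without an absolute depth the counting error within a library is unknown.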
